A study of Mus musculus with 4 samples.

Results

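Antibody genes were counted in fosTRAP-seq libraries of hippocampal CA1 neurons, and the members described here are the rows of the deposited table whose biotype is immunoglobulin constant (IG_C_gene) or immunoglobulin variable (IG_V_gene). There were 174 such genes among 28193. The 11 constant genes were 7 of the heavy chain, 1 of the kappa light chain and 3 of the lambda light chain, and the 163 variable (V) genes were 82 heavy, 78 kappa and 3 lambda. The rule uses the annotation only and no measured value.

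In fosTRAP-seq, neurons with an active c-Fos promoter in a tamoxifen window come to carry HA-tagged ribosomes, whose bound RNA is sequenced. Male C57BL/6J mice aged 3 to 5 months received AAV8-c-Fos-ERT2-Cre-ERT2-PEST, in which a c-Fos promoter drives a tamoxifen-dependent Cre, and a vector of serotype AAV9 (EF1a.DIO.HA-mRpl22.IRES2.eYFP) that yields HA-tagged Rpl22 where Cre has acted. The sample labels name instead a cFos-Cre:Ribotag genotype and the dorsal hippocampus. On day 0 all mice received 4-hydroxytamoxifen and 5 h of sleep deprivation. A second deprivation of 5 h followed on day 7 in SD mice only, NSD mice being left undisturbed by it, and CA1 was taken at ZT 5. Each library pooled the CA1 of 5 mice, so the 10 mice of a group gave n = 2 libraries, and every standard deviation (s.d.) below is between such pools. The tagged ribosomes were pulled down with a mouse anti-HA antibody on protein A/G beads from homogenate of the whole CA1, which holds other cells too. In bulk libraries, fewer cells of a type and less RNA per cell cannot be told apart.

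An antibody is built of pairs of heavy and light chains. B cells join a V gene to a J segment, in the heavy chain with a D segment between them, to make the variable region of a chain, and the constant gene downstream gives the isotype: IgM from Ighm, IgD from Ighd, the IgG subclasses from Ighg3, Ighg1, Ighg2b and Ighg2c (the C57BL/6 counterpart of Ighg2a), and IgA from Igha. The light chain carries either a kappa (Igkc) or a lambda (Iglc1, Iglc2, Iglc3) constant region, and in mice most antibodies carry kappa. Plasma cells, the secreting end stage of B cells, make these transcripts in very large amounts, and in and around the brain they are known mainly from its borders.

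The 4 IgG genes differ in the hinge, a short flexible stretch with cysteines that link the 2 heavy chains. Their hinge exons in GRCm39, read on the minus strand of chromosome 12, are shown because the isotype results turn on telling these genes apart, with the in-frame cysteine codons in capitals.
Ighg2c (chr12:113251883-113251945): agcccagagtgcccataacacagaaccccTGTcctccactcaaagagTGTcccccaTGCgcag
Ighg2b (chr12:113270881-113270946): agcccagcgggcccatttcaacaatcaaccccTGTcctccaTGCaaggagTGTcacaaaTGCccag
Ighg3 (chr12:113324149-113324196): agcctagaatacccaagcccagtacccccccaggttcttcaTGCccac
Ighg1 (chr12:113293464-113293502): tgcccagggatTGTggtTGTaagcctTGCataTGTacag
The exon of Ighg2c has 3 cysteine codons over 63 bases, those of Ighg2b and Ighg1 have 4 over 66 and 39 bases, and that of Ighg3 has 1 over 48 bases.

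The V genes that led their chains, or that moved most between groups, are shown by the end of the V exon, with the codon of the conserved cysteine before the antigen-binding CDR3 loop in capitals. Ighv6-3 (chr12:114355332-114355789, minus strand) had the largest mean level of the heavy V genes, Igkv10-96 (chr6:68608947-68609426, minus strand) that of the kappa V genes, and Ighv5-9-1 (chr12:113699731-113700250, minus strand) the largest fold change among the calls.
Ighv6-3: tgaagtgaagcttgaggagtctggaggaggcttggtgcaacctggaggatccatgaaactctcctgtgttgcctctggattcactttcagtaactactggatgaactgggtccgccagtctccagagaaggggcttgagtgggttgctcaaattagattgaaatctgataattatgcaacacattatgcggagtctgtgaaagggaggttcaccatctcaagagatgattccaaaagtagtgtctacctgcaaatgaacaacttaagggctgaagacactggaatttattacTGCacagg
Ighv5-9-1: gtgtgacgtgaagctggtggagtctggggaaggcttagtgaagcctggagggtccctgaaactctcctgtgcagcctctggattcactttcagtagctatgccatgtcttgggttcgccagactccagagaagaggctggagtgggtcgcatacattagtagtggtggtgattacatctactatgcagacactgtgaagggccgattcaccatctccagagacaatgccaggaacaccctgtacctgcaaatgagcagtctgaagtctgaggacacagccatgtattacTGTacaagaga
Igkv10-96: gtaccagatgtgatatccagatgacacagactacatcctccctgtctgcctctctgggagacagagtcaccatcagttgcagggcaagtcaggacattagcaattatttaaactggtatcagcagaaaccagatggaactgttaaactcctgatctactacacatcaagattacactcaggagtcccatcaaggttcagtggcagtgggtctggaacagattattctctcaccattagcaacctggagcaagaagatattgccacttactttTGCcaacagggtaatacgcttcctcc

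The 4 libraries held 162943863 (NSD 1), 153511705 (NSD 2), 181914848 (SD 1) and 195910235 (SD 2) estimated counts. Levels are given as CPM, counts per 1000000 after TMM scaling (a factor per library that sets most genes level), and comparisons of levels between genes as CPM per kb of merged exon. At this depth 3 counts, the limit that a count of 0 allows, correspond to 0.0159 to 0.0191 CPM. Intervals and such limits cover counting error only. Markers of CA1 pyramidal neurons summed to 6487 and 6846 CPM in NSD and 6224.5 and 6698.5 CPM in SD. Camk2a, a kinase gene of excitatory neurons, gave 4090 to 4379 CPM of these sums. It ranked 7 to 10 among all genes by count in the 4 libraries. The median log2 fold change of SD over NSD among the 9 markers was -0.29.

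Immunoglobulin transcripts were abundant in every library and were led by IgG heavy chain constant genes. The members together held 391740 counts in NSD 1, 394052 in NSD 2, 731622 in SD 1 and 529820 in SD 2. These were 0.240%, 0.257%, 0.402% and 0.270% of the libraries. Between 141 and 148 of the 174 members were counted at least once in a library. Constant genes took 84.1% to 86.3% of the immunoglobulin counts and V genes 13.7% to 15.9%.

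Ighg2c was the leading member in 3 of the 4 libraries and Ighg3 in NSD 2. Ighg2c stood at 906 CPM in NSD 1, 516 in NSD 2, 1808 in SD 1 and 772 in SD 2. Per kb of exon it ranked 5, 15, 1 and 7 among the 27962 genes of the table that matched the annotation, in the same order of libraries. Its merged exons cover 1326 bases in the annotation, fewer than those of Ighg2b (2678), Ighg3 (2512) and Ighg1 (2592), so a comparison per kb favours it more than one by counts. Ighg3 had 314, 600, 509 and 342 CPM in NSD 1, NSD 2, SD 1 and SD 2, with its highest value in an NSD library. Ighg2b had 257 and 273 CPM in NSD and 325 and 609 CPM in SD, without overlap between the groups. For Ighg1 the values were 42.4 and 169 CPM in NSD and 143 and 129 CPM in SD, and NSD 1 was the low library. The IgM gene Ighm had 173 and 166 CPM in NSD and 269 and 135 CPM in SD, and the IgA gene Igha 134 and 182 CPM in NSD and 139 and 173 CPM in SD, with overlapping groups for both. Ighd, the IgD gene that marks naive B cells, was near the limit of counting with 12, 14, 16 and 0 counts, the last being SD 2.

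**Figure D1:**
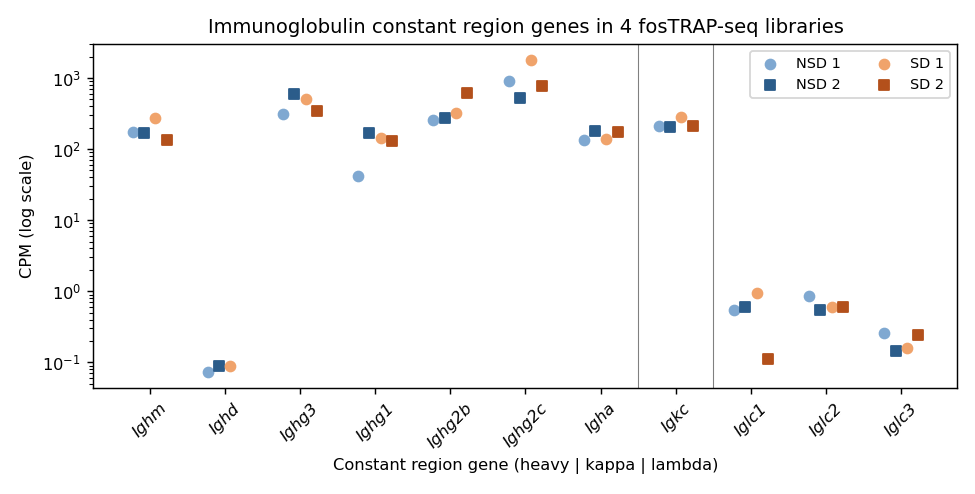
CPM of the 11 constant region genes on a log axis, with 1 point per library (blue circles and squares, NSD 1 and 2, orange circles and squares, SD 1 and 2). The IgG, IgM, IgA and kappa genes lie between 42.4 and 1808 CPM, the lambda genes below 1 CPM, and Ighd below 0.1 CPM. Ighd in SD 2, at 0, is not drawn.

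The IgG genes together made up 83.2%, 81.8%, 87.2% and 85.8% of the heavy chain constant counts in NSD 1, NSD 2, SD 1 and SD 2. The share of Ighg2c was 49.6% (Wilson 95% interval 49.4 to 49.8) in NSD 1, 27.1% (26.9 to 27.2) in NSD 2, 56.6% (56.5 to 56.7) in SD 1 and 35.7% (35.6 to 35.9) in SD 2. The 2 libraries of a group therefore differed by more than 20 percentage points, and the groups overlapped. Libraries numbered 1 had the larger Ighg2c share in both groups. Ighg3 held 17.2%, 31.5%, 15.9% and 15.9%, with NSD 2 apart from the other libraries. Ighg2b held 14.1%, 14.3%, 10.2% and 28.2%, with SD 2 apart. Igha ranged from 4.36% to 9.53% and Ighm from 6.23% to 9.46%. Ighg1 was at 2.32% in NSD 1 and at 4.47% to 8.84% in the other libraries. Per kb of exon the Ighg2c share was between 40.9% and 70.4%, and Ighg2c led in all 4 libraries, NSD 2 included. In 6 of the 7 heavy constant genes at least 1 library had a value that was not exactly whole (tolerance 0), since the authors' estimation divides reads that fit several genes, and the split among isotypes rests partly on that model.

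**Figure D2:**
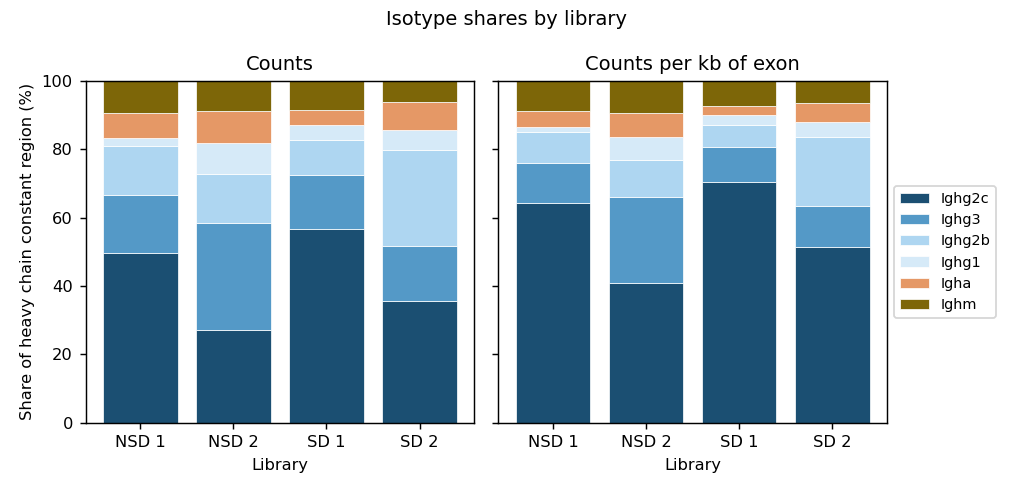
Stacked bars of the share (%) of heavy chain constant region counts held by each isotype gene in each library, from counts on the left and from counts per kb of exon on the right; Ighd, below 0.01%, is left out. Ighg2c takes 27.1% to 56.6% of counts, and the libraries of a group differ as much as the groups do.

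The light chains were kappa almost throughout. Igkc (chr6:70703419-70703950, plus strand) had 211 and 201 CPM in NSD and 282 and 212 CPM in SD, and SD 1 stood above the other 3 libraries. The 3 lambda constant genes summed to 1.65 and 1.30 CPM in NSD and 1.70 and 0.957 CPM in SD. Lambda was 0.778% of the light chain constant counts in NSD 1 (95% interval 0.691 to 0.875), 0.645% in NSD 2 (0.563 to 0.739), 0.599% in SD 1 (0.536 to 0.670) and 0.450% in SD 2 (0.390 to 0.521). Both SD libraries had a lower lambda share than both NSD libraries, a difference for which 2 libraries against 2 allow no exact two-sided permutation p under 0.333. Within lambda, Iglc1 held 32.5%, 46.3%, 55.0% and 11.6% of the counts, and it was low in SD 2 with 21 counts against 89 to 169 elsewhere. The lambda V genes gave 96, 59, 79 and 34 counts. Iglv1 had 66, 48, 64 and 23 of these, Iglv2 had 30, 2, 0 and 0, and Iglv3 had 0, 9, 15 and 11. The kappa share among light chain V counts was 99.2% to 99.8%, next to 99.2% to 99.5% from the constant genes.

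Heavy chain constant counts outnumbered Igkc by 8.67, 9.48, 11.3 and 10.2 times in NSD 1, NSD 2, SD 1 and SD 2. Per kb of exon the ratio was 2.68, 2.52, 3.66 and 2.85. From V genes the heavy to kappa ratio was 3.33, 3.73, 4.16 and 3.86, and V exons are of similar length in both chains, so that it was 3.39 to 4.27 per kb. On each of these 4 scales both SD libraries had a higher ratio than both NSD libraries, which again cannot reach an exact permutation p under 0.333. A lncRNA on the opposite strand, Gm68839, shares 521 of the 532 exon bases of Igkc in the annotation used here. The library kit keeps strand, but the strand setting of the counting is not given in the sources used here, so the reads of the 2 genes may not be separated. Summed over genes, the V genes reached 0.640 to 0.883 of the constant level per kb in the heavy chain and 0.507 to 0.602 in the kappa chain.

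Of the 174 members, 88 had more than 5 counts in every library and were tested between SD and NSD with edgeR, 10 constant and 78 V genes. The 86 that were not tested held at most 1.4% of the immunoglobulin counts of a library, but several of them were high in 1 library. Ighv1-47 had 0, 67, 0 and 1292 counts, Ighv5-12 0, 86, 26 and 1271 counts, and Ighv1-76 1239, 275, 64 and 2 counts in NSD 1, NSD 2, SD 1 and SD 2. These 3 genes fall outside the rule for named genes and were chosen after their values were seen.

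Of the 88 tested members, 5 were higher in SD and 1 was lower (adjusted p under 0.05 and fold over 1.2). Over all 22338 genes tested, 0.77% were called higher and 2.33% called lower. Over the 88 members the median log2 fold change came to 0.15, against -0.02 over all genes tested. All 6 calls were V genes, 5 of the heavy chain and 1 of the kappa chain. With 1 library left out, its group then has 1 library and the spread is pooled, and the calls were 9 without NSD 1, 16 without NSD 2, 46 without SD 1 and 38 without SD 2, where 1.02%, 3.09%, 9.85% and 4.77% of all genes tested were called in either direction.

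Igkv10-96 had 25.1 and 22.9 CPM in NSD and 33.8 and 31.6 CPM in SD. The groups did not overlap, and its log2 fold change was 0.45 (standard error 0.08, adjusted p = 0.0393). Ighv1-59 had 7.74 and 6.44 CPM in NSD and 28.8 and 17.5 CPM in SD (log2 fold change 1.71, standard error 0.21, adjusted p = 0.0328). For Ighv1-55 the values were 1.86 and 3.70 CPM in NSD and 10.9 and 12.4 CPM in SD, and the log2 fold change was 2.07 (standard error 0.27, adjusted p = 0.0328). In each of these V genes the lower SD library was above the higher NSD library. Ighv1-7 rose from 1.5 and 0.522 CPM to 5.63 and 4.99 CPM (log2 fold change 2.39, standard error 0.41, adjusted p = 0.0374). Ighv1-81 rose from 2.30 and 2.89 CPM to 4.38 and 5.31 CPM (log2 fold change 0.90, standard error 0.19, adjusted p = 0.0482). Its call ended without NSD 1 (adjusted p = 0.116) and without SD 2 (adjusted p = 0.0787), and that of Igkv10-96 without NSD 2 (adjusted p = 0.0538). The 4 heavy V genes that rose belong to the Ighv1 family, which holds 46 of the 82 heavy V genes. Ighv5-9-1, the one that fell, had 2.73 CPM in NSD 1 and 55.0 CPM in NSD 2 against 0.669 and 0.730 CPM in SD. It changed by -5.36 on the log2 scale (standard error 1.16, adjusted p = 0.0491), and without NSD 2, the library that sets its size, it was -1.96 (adjusted p = 0.0269). Its call ended with DESeq2's size factors (adjusted p = 0.0525) and with no count filter (0.0708). With no count filter those of Ighv1-7, Ighv1-81 and Igkv10-96 ended too (adjusted p of 0.0519, 0.0571 and 0.0519), and with edgeR's filterByExpr all 6 calls ended (adjusted p of 0.0628 to 0.0849).

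No constant gene was called with all 4 libraries in the fit without the block. Ighg2b (log2 fold change 0.82, standard error 0.23, adjusted p = 0.0996) and Ighg2c (0.86, standard error 0.37, adjusted p = 0.254) were the 2 constant genes with an unadjusted p under 0.05. Both moved with the library left out. Ighg2c was at 1.35 without NSD 1, 0.51 without NSD 2, 0.12 without SD 1 and 1.36, a call, without SD 2 (adjusted p = 5.251e-14). Ighg2b was at 1.199, a call, without SD 1 (adjusted p = 7.459e-14) and at 0.31 without SD 2. For Igkc the log2 fold change was 0.26 (standard error 0.13, adjusted p = 0.312), for Ighg1 0.37 (standard error 0.47, adjusted p = 0.760) and for Ighm 0.25 (standard error 0.25, adjusted p = 0.677). Without SD 1 Igkc was at 0.04, and without SD 2 it was called at 0.47 (adjusted p = 0.00614). Without SD 2 Ighg1 (0.46, adjusted p = 0.00226) and Ighm (0.68, adjusted p = 2.297e-06) were called too, and Ighg1 also without NSD 2 (1.69, adjusted p = 4.974e-04), while Ighg1 was at -0.28 without NSD 1 and Ighm at -0.33 without SD 1. For Ighg3 the log2 fold change was -0.10 (standard error 0.28, adjusted p = 0.900) and for Igha -0.02 (standard error 0.15, adjusted p = 0.975). The lambda genes Iglc1, Iglc2 and Iglc3 were at -0.13, -0.23 and -0.01, with adjusted p of 0.957, 0.819 and 0.997, and Iglc1, low in SD 2, was called at -2.35 without SD 1 (adjusted p = 0.00526) and stood at 0.73 without SD 2. Summed over all members, the level was 2435 ± 103 CPM in NSD and 3425 ± 881 CPM in SD (s.d., n = 2 each), a log2 ratio of 0.49 that was 0.78 between the libraries numbered 1 and 0.16 between those numbered 2. Without SD 1 the log2 ratio of the sum was 0.20.

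**Figure D3:**
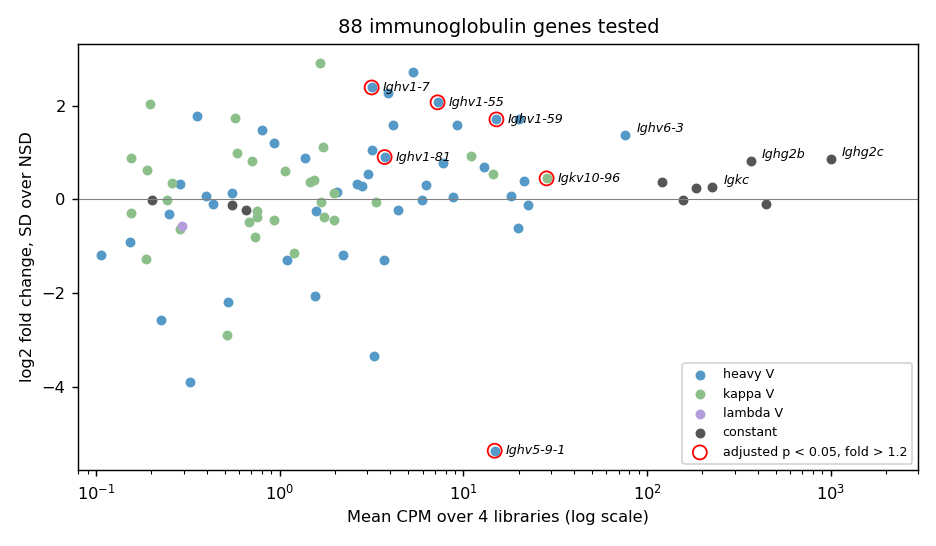
Log2 fold change of SD over NSD (edgeR) against mean CPM over the 4 libraries on a log axis for the 88 immunoglobulin genes tested, coloured by segment and chain, with the 6 calls circled in red. The constant genes with over 100 CPM lie between -0.10 and 0.86, while V genes of lower level spread from -5.36 to 2.90.

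The sample labels give each library a batch number equal to its replicate number. With that number as a block in the fit, 18 of the 88 members were called higher and 8 lower, where 2.99% of all genes tested were called higher and 8.47% lower. The 6 calls without the block were among these 26. With so few libraries the block leaves little information on the spread of each gene, which is then taken largely from other genes. V genes varied more than other genes did, so the adjusted p of the block fit may be too small for them. Ighg2c (log2 fold change 0.79, adjusted p = 1.63e-04) and Ighg2b (0.75, adjusted p = 0.00240) were the constant genes called with the block. In Ighg2c the log2 difference was 1.00 between the libraries numbered 1 and 0.58 between those numbered 2, and in Ighg2b 0.34 and 1.16. Ighv6-3, which had 50.9 and 33.5 CPM in NSD and 179 and 39.8 CPM in SD, was called with the block (adjusted p = 0.00906) and not in the fit without it. Its log2 differences were 1.81 and 0.25, and in the fit without the block the log2 fold change turned to -0.08 when SD 1 was left out and was 2.10, a call (adjusted p = 2.683e-82), when SD 2 was. The other members called higher with the block were Ighv1-15, Ighv1-26, Ighv1-39, Ighv1-52, Ighv1-72, Ighv2-5, Igkv1-135, Igkv8-24, Igkv12-98 and Igkv14-111, and the others called lower were Ighv1-5, Ighv1-53, Ighv1-69, Ighv1-71, Ighv3-1, Ighv5-6 and Igkv4-72. Among these, Ighv1-15, Ighv1-52, Ighv1-71 and Ighv1-72 have another annotated V gene whose V exon is at least 98% identical, so that their counts are uncertain. Other called genes lie just below that cut. Ighv1-7 is 97.7% identical to Ighv1-4, and Ighv2-5 97.7% to Ighv2-4. Ighv1-26 is 97.4% identical to Ighv1-18, and Ighv1-59, called higher, 97.4% to Ighv1-69, called lower with the block.

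Of the 88 members, 16 (18.2%) had no overlap with SD the higher group and 8 (9.09%) with SD the lower. Over all genes tested these shares were 22% and 27.5%. The remaining 64 members overlapped between the groups.

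The V genes varied far more between pools of the same group than other genes did. The median absolute log2 difference between the 2 libraries of a group was 1.41 in NSD and 1.16 in SD over the 78 V genes tested, and 0.179 and 0.152 over all genes tested. For the 10 constant genes tested it was 0.533 and 0.586. The median ratio of the highest to the lowest library was 5.34 over the V genes tested and 1.30 over all genes tested, and it passed 10 in 24 V genes. Part of these genes were low, and a low gene varies more by counting alone.

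In the heavy chain a different V gene led in NSD 2 and in SD 2 than in the libraries numbered 1. Ighv6-3 led in NSD 1 with 20.5% of heavy V counts and in SD 1 with 38.9%. Ighv5-9-1 led in NSD 2 with 17.5%, where it was at 1.1% in NSD 1, 0.146% in SD 1 and 0.214% in SD 2. Ighv2-9 led in SD 2 with 14.5%, against 5.41%, 1.62% and 2.61% in NSD 1, NSD 2 and SD 1. Ighv7-3 was second in NSD 1 at 13.3% and stood at 0.814% in NSD 2. In contrast, Ighv7-1 had 21.0, 25.7, 23.5 and 19.4 CPM in NSD 1, NSD 2, SD 1 and SD 2, the narrowest range of any V gene tested, with a highest-to-lowest ratio of 1.33. Ighv5-4 (7.32%, 5.93%, 3.30% and 9.67%), Ighv9-3 (5.58%, 10.8%, 4.76% and 2.73%), Ighv2-2 (3.18%, 3.77%, 1.42% and 7.49%) and Ighv2-5 (0.362%, 2.63%, 2.26% and 5.01%) completed the 10 heavy V genes of the largest mean level, with Ighv1-59. The 5 leading heavy V genes of a library held 49.0% to 60.7% of its heavy V counts. The effective number of heavy V genes, the exponential of the Shannon entropy of their shares, was 20.1 and 21.4 in NSD and 14.5 and 22.1 in SD, lowest in SD 1 where Ighv6-3 was highest.

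The kappa chain was more alike between libraries. Igkv10-96 led in all 4, with 33.6% and 27.1% of kappa V counts in NSD and 30.7% and 35.7% in SD. Igkv1-135 held 16.7%, 13.1%, 12.5% and 23.3%, and Igkv1-110 held 11.1%, 8.03%, 20.9% and 6.56%, in NSD 1, NSD 2, SD 1 and SD 2. These 3 genes were the first 3 of the kappa chain in each library. In level, Igkv1-110 had 8.32 and 6.79 CPM in NSD and 23.1 and 5.80 CPM in SD, so that SD 1 stood apart, and Igkv1-135 had 12.5 and 11.1 CPM in NSD and 13.8 and 20.5 CPM in SD. Igkv17-127 followed with 0.615, 6.19, 2.97 and 3.55 CPM. The other kappa V genes among the leading 10, Igkv6-17, Igkv6-15, Igkv6-13, Igkv14-111, Igkv12-46 and Igkv12-98, lay between 0.267 and 5.23 CPM. The effective number of kappa V genes was 13.7 and 18.1 in NSD and 12.5 and 11.0 in SD, so that both SD libraries were below both NSD libraries. The NSD libraries differed from each other by more than the gap between the groups. Here too no exact two-sided permutation p under 0.333 is possible.

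**Figure D4:**
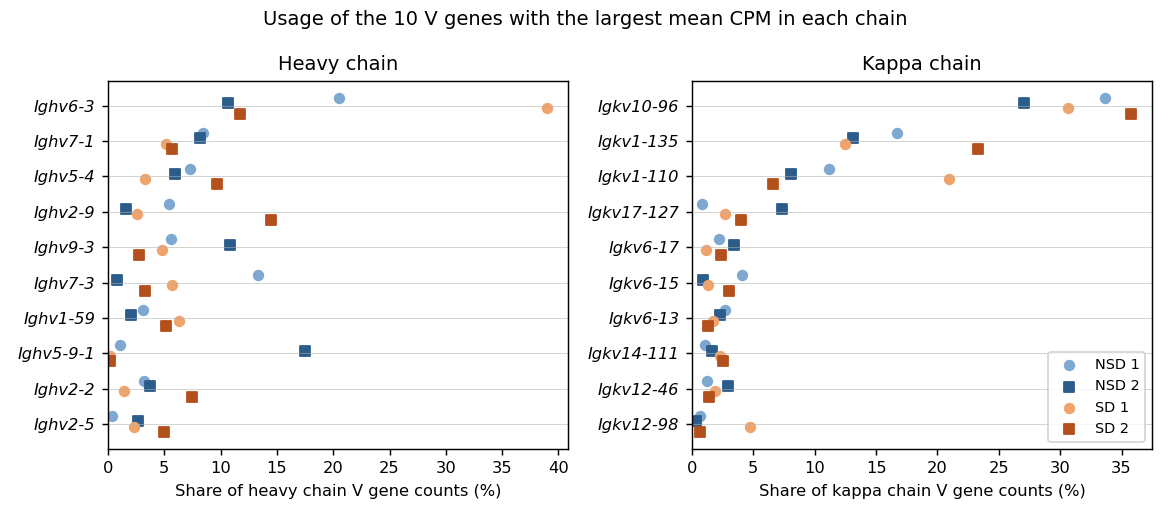
Share (%) of V gene counts of the heavy chain (left) and the kappa chain (right) held by the 10 V genes of the largest mean CPM, with 1 point per library. The heavy chain leader changes between libraries (Ighv6-3 at 38.9% in SD 1, Ighv5-9-1 at 17.5% in NSD 2, Ighv2-9 at 14.5% in SD 2), while Igkv10-96 leads the kappa chain in each at 27.1% to 35.7%.

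The usage shared by 2 libraries, summed as the smaller of the 2 shares of each V gene, was in the heavy chain 52.0% for NSD 1 with NSD 2 and 54.0% for SD 1 with SD 2. It was 60.1% and 57.3% between libraries of the same number, and 54.4% and 48.8% between libraries that differed in both. In the kappa chain the values ran from 69.2% to 78.0%, with 69.2% and 69.4% within groups. The values within groups thus lay inside the range of those between groups in the heavy chain, and below them in the kappa chain. By family, Ighv1 held 20.5% to 28.7% of heavy V counts, Ighv6 10.7% to 38.95%, Ighv2 10.2% to 31.7% and Ighv5 5.97% to 26.1%. Ighv2 was highest in SD 2, Ighv5 in NSD 2 and Ighv6 in SD 1.

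Heavy V genes lie between 166 and 2577 kb from Ighm, the first constant gene after the J segments. The 28 nearest held 50.3%, 67.5%, 36.001% and 58.6% of heavy V counts in NSD 1, NSD 2, SD 1 and SD 2. The next 27 held 26.4%, 18.5%, 47.2% and 23.6%, with Ighv6-3 among them at 969 kb. The 27 farthest, from 1723 kb on, held 14.1% to 23.3%. In the kappa locus the 26 V genes farthest from Igkc held 63.6% to 80.2% of kappa V counts. Of the 78 kappa V genes, the 31 on the strand of Igkc, which rearrange by deletion, held 41.1% to 53.6%, and the 47 on the opposite strand, which rearrange by inversion, held the rest.

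**Figure D5:**
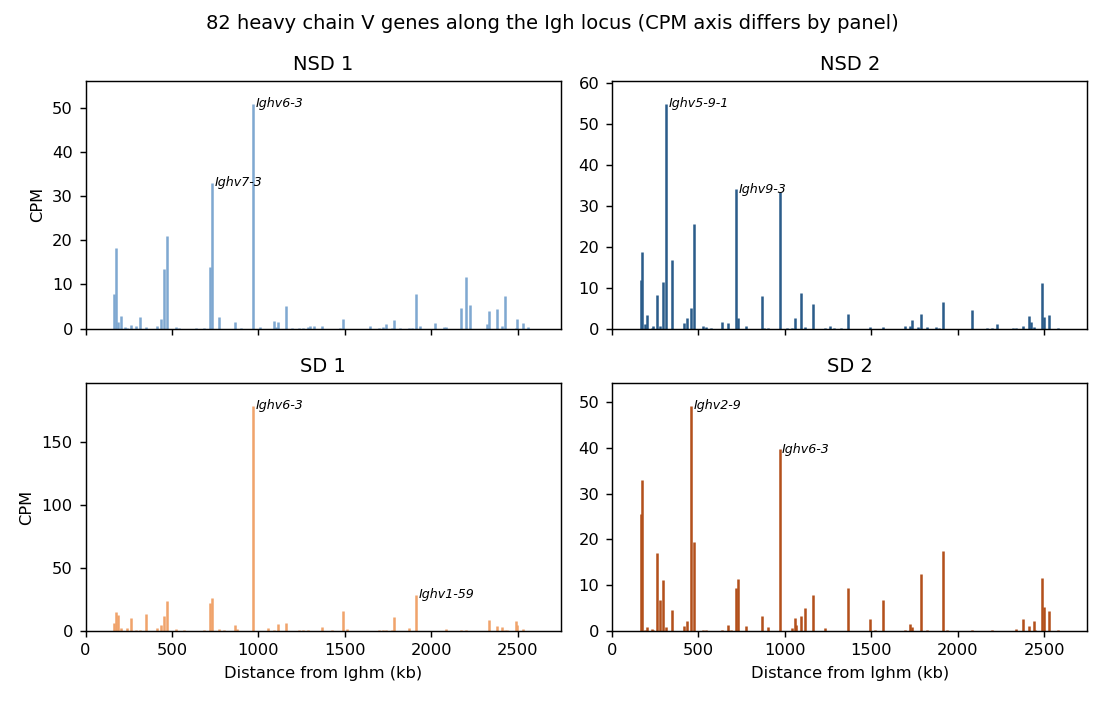
CPM of the 82 heavy chain V genes against their distance from Ighm in kb, in 1 panel per library, with the 2 highest genes named and a CPM axis that differs by panel. Counts spread over the whole locus in each library, and the tallest line is at a different gene in NSD 2 (Ighv5-9-1, 55.0 CPM) and SD 2 (Ighv2-9, 49.3 CPM) than in NSD 1 and SD 1 (Ighv6-3, 50.9 and 179 CPM).

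V genes share a promoter element, the octamer, that B cell factors of the Oct family bind, and a recombination signal after the V exon that is cut when V joins D or J. The octamer was searched as ATGCAAAT and its reverse complement ATTTGCAT in the 250 bases before and 50 after the annotated start of each gene in GRCm39. It was found for 68 of 82 heavy V genes (82.9%), each time as ATGCAAAT, and for 59 of 78 kappa V genes (75.6%), each time as ATTTGCAT, and for all 3 lambda V genes. Of the other 27788 genes of the table with an annotated start, 502 (1.81%) held it on either strand. Of the 6 called V genes, Ighv1-7 and Ighv1-81 did not hold it. The windows of the other called genes and of 2 with a large level, Ighv6-3 and Igkv1-135, are shown with the octamer in capitals.
Ighv6-3 (chr12:114355883-114355942, minus): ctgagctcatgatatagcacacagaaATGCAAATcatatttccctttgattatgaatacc
Ighv5-9-1 (chr12:113700293-113700352, minus): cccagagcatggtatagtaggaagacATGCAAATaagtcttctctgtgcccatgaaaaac
Ighv1-59 (chr12:115299210-115299269, minus): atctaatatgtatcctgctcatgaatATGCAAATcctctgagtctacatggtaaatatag
Ighv1-55 (chr12:115172222-115172281, minus): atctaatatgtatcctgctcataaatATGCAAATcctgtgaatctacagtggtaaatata
Igkv10-96 (chr6:68609474-68609533, minus): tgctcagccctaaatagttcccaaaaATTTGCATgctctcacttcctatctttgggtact
Igkv1-135 (chr6:67586597-67586656, plus): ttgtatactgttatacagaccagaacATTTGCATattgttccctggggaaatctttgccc
The octamer began 127 bases before the annotated start in Ighv6-3, 76 in Ighv5-9-1, 109 in Ighv1-59, 44 in Ighv1-55, 81 in Igkv10-96 and 74 in Igkv1-135. V genes with it held 62.1% to 88.1% of heavy V counts and 70.9% to 83.3% of kappa V counts. Its absence from a window says only that these letters are not there.

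The heptamer of the recombination signal, CACAGTG, made up the first 7 bases after the gene in 66 of 82 heavy V genes (80.5%) and 68 of 78 kappa V genes (87.2%), in none of the 3 lambda V genes and in 11 of the other 27788 genes (0.0396%). The nonamer ACAAAAACC followed it after 23 bases in 2 heavy V genes and after 12 bases in 27 kappa V genes. The same 6 V genes are shown with the positions of heptamer and nonamer in capitals, whatever letters they hold.
Ighv6-3 (chr12:114355293-114355331, minus): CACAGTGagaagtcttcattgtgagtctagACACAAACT
Ighv5-9-1 (chr12:113699692-113699730, minus): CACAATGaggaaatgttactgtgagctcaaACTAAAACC
Ighv1-59 (chr12:115298663-115298701, minus): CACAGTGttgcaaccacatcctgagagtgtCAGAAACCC
Ighv1-55 (chr12:115171676-115171714, minus): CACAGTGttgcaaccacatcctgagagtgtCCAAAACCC
Igkv10-96 (chr6:68608919-68608946, minus): CACAATGatataagtcataACATAAACC
Igkv1-135 (chr6:67587493-67587520, plus): CACAGTGattcagacccgaACAAAAACT
Igkv10-96, the leading kappa V gene, and Ighv5-9-1 carry CACAATG in place of the heptamer searched. V genes with the exact heptamer held 59.7% to 69.3% of kappa V counts and 74.2% to 92.3% of heavy V counts.

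Genes of plasma cells were counted beside the antibody genes. Jchain, which encodes the joining chain of secreted IgM and IgA, had 14.4 and 15.6 CPM in NSD and 17.8 and 11.8 CPM in SD, and Mzb1, a chaperone of antibody assembly, had 0.549 and 0.707 CPM in NSD and 0.797 and 0.582 CPM in SD. Neither separated the groups. Heavy chain constant counts were 127, 122, 179 and 184 times those of Jchain in NSD 1, NSD 2, SD 1 and SD 2, and Igkc counts 14.6, 12.9, 15.8 and 18.0 times. Sdc1 (CD138) had 1.02 to 1.18 CPM, and Tnfrsf17 (BCMA), a receptor for survival signals, 11 to 22 counts. All 15 plasma cell markers were in the table and were tested, and none was called. Xbp1, the transcription factor of the secretory programme that many secretory and neural cells also use, had the largest mean level of the list and was called higher with the block (35.4 and 38.97 CPM in NSD, 45.2 and 48.5 CPM in SD, adjusted p = 0.0583 without the block and 0.00249 with it). The list summed to 101 and 107 CPM in NSD and 120 and 107 CPM in SD, and its part in the immunoglobulin values was not tested.

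Markers of B and T cells were low. Ms4a1 (CD20) had 3 to 15 counts, Cd79a 32 to 61 and Cd79b 9 to 42, all under 0.4 CPM, and none was at 0 in every library. Of the 16 B cell markers 13 were tested and none was called, and the list summed to 23.4 and 19.4 CPM in NSD and 22.3 and 18.0 CPM in SD, with the largest part from Pou2f2 at 9.59 to 13.0 CPM. Ebf1, a B cell transcription factor gene also used by vessel-wall cells, was called lower in SD with the block (adjusted p = 0.0366) and not without it. Cd3e had 20 to 65 counts and Trac, the T cell receptor alpha constant gene, 55 to 100. None of the 15 T cell markers tested was called, and their median log2 fold change was -0.54. The T cell kinase gene Lck led the list with 1.69 and 1.27 CPM in NSD and 1.79 and 1.24 CPM in SD.

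The other 8 lists gave 1 call, a lower one, among 68 genes tested, where 2.33% of all genes tested were called lower. Fc receptors and antibody transport genes bind or carry antibody, and their leading member Fcgr1 had 14.2 and 8.69 CPM in NSD and 16.4 and 11.9 CPM in SD. None of the 7 tested was called, though Fcgr1 was called higher with the block (adjusted p = 0.0298), and none of the 8 MHC class II genes was called, whose leading member Cd74 had 26.9, 18.4, 29.6 and 13.8 CPM, high in both libraries numbered 1. None of the 8 genes tested of V(D)J recombination and class switching was called, and their leading member was Prkdc, a DNA repair gene that all cells use, at 34.2 to 36.2 CPM. None of the 12 microglia, 12 endothelial, 3 red blood cell or 9 CA1 pyramidal markers tested was called without the block, while with it 6 endothelial and 5 CA1 pyramidal markers were called lower, where 8.47% of all genes tested were. Their leading members were Csf1r, a growth factor receptor of microglia (23.6, 17.9, 23.5 and 17.6 CPM in NSD 1, NSD 2, SD 1 and SD 2), Flt1, a VEGF receptor (20.3, 28.3, 16.3 and 11.2 CPM), Alas2, of heme synthesis in red cells (2.07, 1.13, 1.27 and 1.25 CPM), and Camk2a (4285, 4338, 4090 and 4379 CPM). The endothelial list summed to 59.3 and 80.8 CPM in NSD and 50.1 and 33.9 CPM in SD. In the choroid plexus and meninges list, Kl was called lower (45.2 and 57.4 CPM in NSD, 35.4 and 34.9 CPM in SD, log2 fold change -0.54, adjusted p = 0.0405), Dcn, a matrix proteoglycan gene, was called higher with the block and not without it (12.2 and 10.6 CPM in NSD, 15.5 and 13.1 CPM in SD, adjusted p = 0.0224), and Ttr ranged from 4.21 CPM in SD 2 to 69.8 CPM in NSD 2. These levels changed between libraries beside the immunoglobulin genes, and their part in the results above was not tested.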

How the data were processed

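RNA from HA-tagged ribosomes of CA1 was sequenced in 4 libraries, 2 NSD and 2 SD, each from a pool of 5 mice, with a stranded total RNA kit. The authors trimmed bases at the 3′ end and aligned to mm39 with STAR 2.7.8a, and Partek's E/M model gave the deposited estimated counts (Ensembl release 110), which are not normalized. For 55.6% of genes at least 1 deposited value was not exactly whole (tolerance 0), and the lowest total over the libraries was 10.

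Estimated counts were rounded, and the test was run on genes over 5 counts in each library with edgeR 4.0.16, R 4.3.3 (TMM scaling, quasi-likelihood fit with condition only, Benjamini-Hochberg adjustment over all genes tested, call at adjusted p under 0.05 and fold over 1.2). The authors tested with DESeq2, which is an alternative here (1.42.0). The fit was tested on data simulated with the same spread for every gene, which does not cover genes as variable as the V genes. Shares and V usage carry no test. Wilson 95% intervals came from scipy 1.17.1. Exon lengths, positions and sequences came from GRCm39 with the GENCODE annotation, in which all 174 members were found, 173 with the same coordinates. 5 members share exon bases with another gene there, namely Igkc, Igkv2-137, Iglv3, Iglc2 and Iglc3.

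The batch number in the labels equals the replicate number and so pairs the libraries. Across genes, NSD and SD libraries of 1 number deviated together from the group mean with a correlation of 0.178, and the fit with this block is an alternative. The others were DESeq2's size factors, no count filter, filterByExpr, other scalings of the sum, shares per kb, V genes at 10 counts or more, and each library left out. Named were all constant and lambda V genes, the 10 heavy and 10 kappa V genes of the largest mean CPM, the leading V gene of each library, members called with or without the block, and from the marker lists the leading and called members and defining genes. The values of 1 B cell marker are not reported here. The members and lists were chosen with earlier results of these data known. As a check for a library deposited more than once, the counts of the libraries of a group were compared across genes (chi-square per degree of freedom 85.2 in NSD and 48.2 in SD), and each was kept as a separate sample.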

Additional observations from a re-analysis of the deposited data

How the results depend on the processing

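The number of immunoglobulin genes called was 6, and it was 14 with DESeq2, 5 with DESeq2's size factors in edgeR, 3 of 174 with no count filter, 0 of 134 with filterByExpr (34 at an unadjusted p under 0.05) and 26 with the replicate block, which pairs libraries by batch number. Of all genes tested, 3.1% were called in the report, and the shares in the same order of settings were 8.81%, 3.07%, 0.461%, 0.00411% (1 of 24323 genes) and 11.5%. Leaving out 1 library left 1 in its group, which was assumed to vary like the others, and gave 9 to 46 calls: 9 without NSD 1, 16 without NSD 2, 46 without SD 1 and 38 without SD 2, with 1.02%, 3.09%, 9.85% and 4.77% of all genes called. DESeq2 and the block called all 6 genes called in the report, the block with a spread that rests largely on other genes. Over the 10 settings, that of the report included, Ighv1-55 and Ighv1-59 were called in 9, Ighv1-7 in 8, Ighv5-9-1 and Igkv10-96 in 7 and Ighv1-81 in 6. The call of Ighv5-9-1 ended with DESeq2's size factors, those of Ighv1-7, Ighv1-81, Igkv10-96 and Ighv5-9-1 with no count filter and all 6 with filterByExpr. The log2 ratio of the summed CPM, 0.49, was 0.31 without Ighg2c, 0.47 with the replicate block, 0.44 to 0.51 under the other scalings and gene sets, and 0.20 to 0.73 with 1 library left out, lowest without SD 1. The mean Ighg2c share, 42.3%, became 56.8% per kb of exon, where the short exon length of the gene raises it, and the kappa share, 99.4% from constant genes, was 99.6% from V genes, with no test. The effective numbers of V genes, 19.5 heavy and 13.8 kappa on average, moved by less than the spread between libraries.

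Directions were followed for the tested constant genes, the genes called in the report and Ighv6-3 only. Among these, directions that turned were of genes not called in the fit of the report, of which Ighv6-3 was called with the block and Ighg1, Ighm, Iglc1 and Ighv6-3 with 1 library left out. Igha, at -0.02, was at 0.0086 with DESeq2, 0.0086 with its size factors and 0.0148 with no count filter, and Iglc3, at -0.0081, was at 0.0134, 0.0131 and 0.0186 under the same settings and at 0.0115 with the replicate block. With 1 library left out the log2 fold changes ran from 0.12 to 1.36 in Ighg2c, from 0.31 to 1.199 in Ighg2b, from 0.041 to 0.47 in Igkc, from -0.47 to 0.44 in Ighg3, from -0.19 to 0.22 in Igha, from -0.33 to 0.68 in Ighm, from -0.28 to 1.69 in Ighg1, from -2.35 to 0.73 in Iglc1, from -0.51 to 0.15 in Iglc2, from -0.36 to 0.49 in Iglc3 and from -0.083 to 2.10 in Ighv6-3. The cause was not tested. Counting error is small at this depth for the IgG, IgM, IgA and kappa constant genes and the leading V genes, and 2 pools a group limit the precision.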

Other observations

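T cell receptor genes, which rearrange by the same recombination machinery as antibody genes, were low beside them. The 6 constant genes of T cell receptors in the table summed to 184, 139, 165 and 90 counts in NSD 1, NSD 2, SD 1 and SD 2, and the 10 V genes to 41, 75, 78 and 57 counts. The 2 immunoglobulin V pseudogenes in the table summed to 0, 4, 14 and 6 counts. These sums compare with between 391740 and 731622 immunoglobulin counts per library.

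Among heavy V genes, 10 of 82 had another annotated V gene with at least 98% identity over the V exon, and these held 3.60% to 8.39% of heavy V counts. Ighv1-62-2 and Ighv1-71 were identical over it. In the kappa chain 3 of 78 genes did so, with 0.236% to 1.22% of counts.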
